A study of Mus musculus with 4 samples.

Results

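The genes described here are 9 mast cell genes, Mcpt4, Cma1, Tpsb2, Tpsab1, Cpa3, Mrgprb2, Fcer1a, Ms4a2 and Hdc, in bulge hair follicle stem cells (HF-SCs) of mouse back skin. They were chosen by symbol from the deposited table of 24421 genes, with the condition that the mean normalized count was above 0, which all 9 members met. Their means were therefore part of the choice and are given as a description. RNA was sequenced from 4 libraries, of which 2 are labelled control and 2 miR-205 induced, from C57BL/6 mice at postnatal day 44. All the mice carried the K14-H2BGFP reporter, and the induced mice also carried Krt14-rtTA and pTRE2-miR-205 (FVB founders), so that doxycycline chow given from day 42 for 2 days switched the microRNA on in cells with an active keratin 14 promoter. The labels call the controls untreated, whereas the protocol has both groups fed doxycycline. Live cells were sorted as H2BGFP-high, Sca1-negative, α6-high and CD34-high, with no antibody against the leukocyte protein CD45 named for the sort, and how many animals went into a library was not given in the sources used here.

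Mast cells are tissue-resident immune cells that are common in the dermis around vessels, nerves and hair follicles. They store histamine and proteases in granules, bound to the proteoglycan serglycin, and release them when antigen crosslinks IgE on the high-affinity receptor FcεRI or when basic peptides and drugs engage the receptor Mrgprb2. The granule proteases of connective tissue mast cells are chymases, tryptases and carboxypeptidase A3. Chymases typically cut after aromatic residues and tryptases after basic residues, and carboxypeptidase A3 trims the end of a peptide. Growth and survival of the lineage depend on the receptor Kit, and its genes are regulated by Gata2 and Mitf.

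The promoters of the 3 members with the most reads among the proteases are shown as a description, and were picked after the reads were seen. Whether these sequences play a part in the differences between libraries was not tested. The sequences are RefSeq's on GRCm38.p6, from 250 bases before to 50 bases after the annotated start, written along the gene. Capitals mark AGATAA or TGATAA, 2 forms of the sequence that GATA factors bind, and TATAAA, the core of the TATA box, on either strand.
Mcpt4, chr14:56062261-56062560, minus strand: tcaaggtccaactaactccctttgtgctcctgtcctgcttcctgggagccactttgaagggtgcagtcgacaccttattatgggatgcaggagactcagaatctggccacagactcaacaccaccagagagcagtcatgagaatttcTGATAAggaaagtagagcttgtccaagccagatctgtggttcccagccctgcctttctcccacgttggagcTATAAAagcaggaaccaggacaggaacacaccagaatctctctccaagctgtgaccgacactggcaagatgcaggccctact
Cpa3, chr3:20242132-20242431, minus strand: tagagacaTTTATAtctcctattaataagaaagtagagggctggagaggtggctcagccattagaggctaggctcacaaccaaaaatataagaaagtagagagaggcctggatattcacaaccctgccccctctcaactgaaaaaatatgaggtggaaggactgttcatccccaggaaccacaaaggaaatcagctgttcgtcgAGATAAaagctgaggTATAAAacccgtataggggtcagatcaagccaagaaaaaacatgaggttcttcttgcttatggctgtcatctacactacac
Cma1, chr14:55944626-55944925, minus strand: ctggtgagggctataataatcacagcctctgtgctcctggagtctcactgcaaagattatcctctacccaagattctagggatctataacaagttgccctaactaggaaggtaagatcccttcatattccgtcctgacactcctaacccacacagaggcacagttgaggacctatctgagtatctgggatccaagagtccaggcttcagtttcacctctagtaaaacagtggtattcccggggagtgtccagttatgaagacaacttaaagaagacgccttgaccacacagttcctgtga
In the Mcpt4 promoter TGATAA begins 103 bases and TATAAA 32 bases before the start. In the Cpa3 promoter AGATAA begins 46 bases and TATAAA 31 bases before it, and a second TATAAA, on the other strand, covers bases beginning 242 before it. The Cma1 window held neither, and its bases after the start did not match the start of a GENCODE vM1 transcript. A promoter was found for 7 of the 9 members, all but Tpsb2 and Tpsab1. AGATAA or TGATAA stood in 5 of these 7, those of Fcer1a, Cpa3, Mrgprb2, Mcpt4 and Ms4a2, and in 18.6% of the 32851 promoters of the same length. TATAAA stood in 3 of 7 and in 13.6% of all promoters. Of the E-box forms that Mitf can bind, CATGTG was found in 1 of 7 (Fcer1a) against 14.2% of all promoters, and CACGTG in 0 of 7 against 7.15%. Both strands were searched for each motif, CACGTG reads the same on both, and no capitals printed here overlap. A match describes the letters only.

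The values come from the column of mean normalized counts, which the authors computed over the 4 libraries after dividing by size factors. This mean is a sum of whole reads, each worth a fixed amount per library, and for genes with a mean of 300 or less it could be solved for the reads in each library. The libraries are named A to D from the shallowest to the deepest, with relative depths of 0.716, 0.966, 1.18 and 1.24. Which of them are the controls is not given by that column, so the 4 libraries were assigned to no group here, no comparison of induced with control was made, and no test was run. The recovered genes held between 514573 reads (library A) and 896282 reads (library C), and every pair of libraries differed by more than sampling noise. Reads divided by relative depth are called normalized reads below, and intervals are exact 95% intervals for counting error alone.

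The 9 members were present at a low level. Together they made up 14.9 of every 1000000 of the summed mean normalized counts and 797 reads over the 4 libraries, and 639 of those reads came from Hdc, Mcpt4 and Cpa3. On the scale of mean normalized count per kb of exon (GENCODE vM1), Mcpt4 was highest with 52.7, followed by Cpa3 with 25.6, Cma1 with 21.0, Hdc with 10.4, Tpsb2 with 4.83, Mrgprb2 with 2.15, Ms4a2 with 2.02, Tpsab1 with 0.430 and Fcer1a with 0.340. Within each library Mcpt4 was the highest member per kb. Cpa3 came next in libraries A, B and D and Cma1 in library C, where Cma1 had 23.7 and Cpa3 15.2 normalized reads per kb. Across libraries the ranges of neighbouring members overlapped throughout this order, since Mcpt4 alone ran from 15.5 to 130 normalized reads per kb. The order also depends on the length used. By the longest coding sequence the mean normalized count of Hdc was 33.5 per kb, above Cpa3 (29.8) and Cma1 (28.9), and that of Ms4a2 7.88. The counting intervals of Cpa3 and Cma1, of Tpsb2 and Mrgprb2, of Mrgprb2 and Ms4a2, of Ms4a2 and Tpsab1, and of Tpsab1 and Fcer1a overlapped as well.

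**Figure D1:**
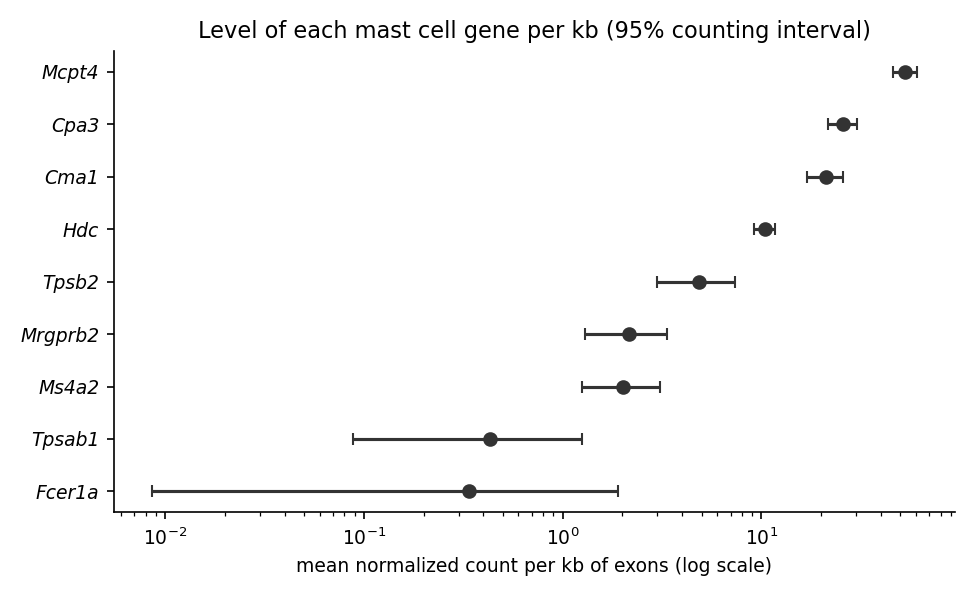
Mean normalized count per kb of exon (x axis, log scale) for each of the 9 mast cell genes, with exact 95% counting intervals over the reads of the 4 libraries. Mcpt4 lies at 52.7 and Fcer1a, which rests on 1 read, at 0.340.

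Mcpt4 (chromosome 14, bases 56059744 to 56062310, GRCm38.p6), the main chymase of mouse connective tissue mast cells, had a mean normalized count of 52.2, at percentile 39.8 of the 17044 genes above 0. Its reads were 11 in library A, 124 in B, 47 in C and 31 in D, or 15.4, 128, 39.9 and 25.1 normalized reads. Library B stood above the other libraries, 3.22 times the next highest (95% interval 2.28 to 4.60) and 8.36 times the lowest (4.51 to 17.2). Cma1 (chromosome 14, 55941451 to 55944675), the chymase also called mast cell protease 5, had a mean of 22.6 and 8.38, 47.6, 25.4 and 8.90 normalized reads in A to D. Here B was 1.87 times library C (1.16 to 3.07) and 5.68 times library A (2.42 to 16.3), and A and D were close. Cma1 and Mcpt4 lie on the same stretch of chromosome 14, the chymase locus.

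Cpa3 (chromosome 3, 20215616 to 20242209), the carboxypeptidase that shares granules with the chymases, had a mean normalized count of 37.2. Its normalized reads were 19.5 in A, 88.0 in B, 22.1 in C and 19.4 in D, so that 3 libraries lay together and B lay 3.99 times above the next (2.54 to 6.45). Hdc (chromosome 2, 126593659 to 126624025), the enzyme that makes histamine from histidine, was the member with the highest mean, 66.5. It had 37.7, 108, 56.0 and 64.7 normalized reads in A to D, and B was 1.66 times library D (1.23 to 2.26). The highest library of Hdc was 2.86 times the lowest (1.86 to 4.54), an interval that overlapped that of Mcpt4 (4.51 to 17.2).

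The tryptases were sparse. Tpsb2 (chromosome 17, 25366308 to 25368096), the tryptase mast cell protease 6, had a mean of 5.40 and 21 reads in all, of which 4 were in A, 10 in B, 0 in C and 7 in D. A count of 0 allows up to 3 reads, or 2.54 normalized reads in C, and the intervals of libraries A (5.58, 1.52 to 14.3) and D (5.66, 2.28 to 11.7) reach below this. Library B was 1.83 times library D (0.628 to 5.66). Tpsab1 (chromosome 17, 25343245 to 25345562), which RefSeq records on GRCm38.p6 as a transcribed pseudogene, had 2 reads in A and 1 in D. Tpsb2 and Tpsab1 are close copies beside each other, so reads between them can have been split or lost in counting, and both values are uncertain for that reason.

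Of the receptors, Mrgprb2 (chromosome 7, 48550965 to 48558086) had a mean normalized count of 4.46, with 11 reads in library B, 8 in D and 0 in A and C. The 0 in A allows up to 4.19 normalized reads, and the interval of library D (6.47, 2.79 to 12.7) reaches below this. B had 11.4 normalized reads, 1.76 times D (0.645 to 5.04). Ms4a2 (chromosome 19, 11615517 to 11623790), the β chain of FcεRI, had a mean of 5.55 and 5, 10, 1 and 5 reads in A to D. B was 1.48 times library A (0.462 to 5.53), so these libraries were not distinguishable at this depth. Library C was lowest, with 0.848 normalized reads (0.0215 to 4.73). Its interval overlapped those of A (2.27 to 16.3) and D (1.31 to 9.44). Fcer1a (chromosome 1, 173221269 to 173227232), the α chain that binds IgE, had 1 read in all, in library A. Fcer1g, the γ chain shared with other Fc receptors and with macrophages, had a mean of 26.8 and was highest in library C.

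**Figure D2:**
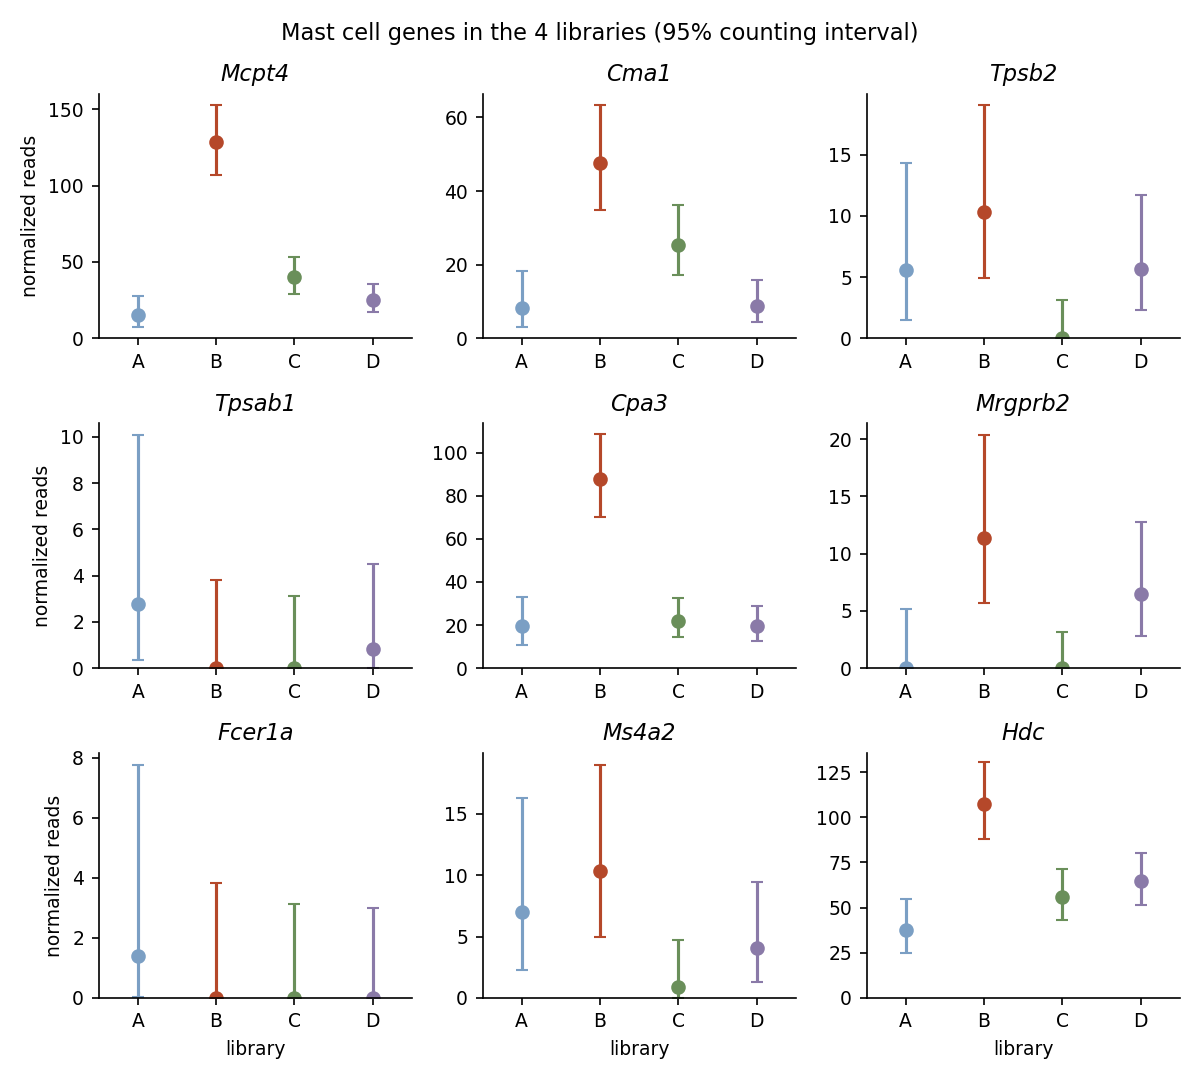
Normalized reads (y axis, a separate scale for each gene) of the 9 mast cell genes in libraries A to D (x axis), with exact 95% counting intervals. Mcpt4, Cma1 and Cpa3 reach 128, 47.6 and 88.0 in library B and stay at or below 39.9, 25.4 and 22.1 in the others, whereas Tpsb2 and Mrgprb2 are at 0 in library C.

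Summed over the 9 members, library B had 404 normalized reads, against 97.7 in A, 144 in C and 135 in D, and so held 51.7% of the total. The highest library was 4.13 times the lowest (3.20 to 5.41), and without library B the same ratio was 1.48. Of the 9 members, 7 were highest in library B, all but Tpsab1 and Fcer1a, which had no read there. For 3 of the 7, Tpsb2, Mrgprb2 and Ms4a2, B was not distinguishable from the next library at this depth, and 31.2% of the 2814 genes with a mean of 2 to 20, where these 3 lie, were highest in B. Library B was singled out after these values were seen, so the level of other genes in it is given beside them. Of the 2898 genes with a mean of 20 to 100, 32.4% were highest in library B, as were 4 of the 4 members in that range, Mcpt4, Cma1, Cpa3 and Hdc. In 5.66% of these genes library B was at least 2 times the median of the other libraries, as it was for 3 of the 4 members, with 5.12 for Mcpt4, 5.35 for Cma1 and 4.50 for Cpa3. Hdc had 1.92, and the median gene 1.08. A ratio as high as that of the member was found in 13 genes for Mcpt4, 11 for Cma1, 16 for Cpa3 and 188 for Hdc, the member included. These counts are low in part because library B was singled out from the members' own values. The ratio of the highest to the lowest library is not tied to B. By that ratio, 31 of the 2898 genes were at least as high as Mcpt4 and 71 as Cma1. For Cpa3 there were 108 such genes and for Hdc 373, or 3.73% and 12.9%. In bulk RNA, fewer cells of a type and less RNA per cell cannot be told apart, and this holds for each difference between libraries given here.

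**Figure D3:**
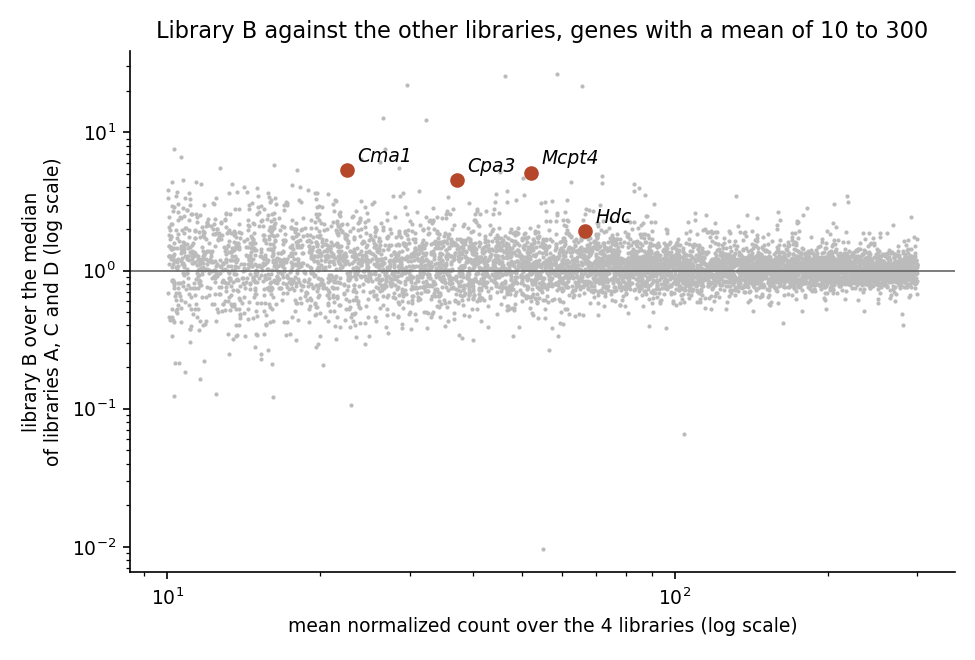
Library B over the median of libraries A, C and D (y axis, log scale) against the mean normalized count (x axis, log scale) for genes with a mean of 10 to 300 (grey), with 4 mast cell genes in red. Cma1, Mcpt4 and Cpa3 lie at 5.35, 5.12 and 4.50, above most genes of a like mean, and Hdc lies at 1.92.

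The makeup of the reads within a library is given for 6 genes that were grouped after their values were seen, so these shares are a description. Tpsb2, Mrgprb2 and Ms4a2 together made up 9 of the 40 reads they shared with Mcpt4, Cma1 and Cpa3 in library A, or 22.5% (exact binomial interval 10.8 to 38.5%). The share was 31 of 286 reads in B, 10.8% (7.48 to 15.03%), 1 of 104 in C, 0.962% (0.0243 to 5.24%), and 20 of 86 in D, 23.3% (14.8 to 33.6%). Library C, with 0 reads of Tpsb2 and Mrgprb2 and 1 of Ms4a2, was next after B in the level of Mcpt4 and Cma1. Hdc had 2.45 reads per Mcpt4 read in A (1.18 to 5.48), 0.839 in B (0.640 to 1.10), 1.40 in C (0.952 to 2.09) and 2.58 in D (1.69 to 4.04), so B lay apart from both A and D. Cma1 per Mcpt4 ran from 0.355 in D to 0.638 in C and Cpa3 per Mcpt4 from 0.553 in C to 1.27 in A, with overlapping intervals in every pair of libraries.

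A further list held 24 genes of mast cell growth, receptors, mediators and granules, of which 19 had a mean above 0. The mucosal-type proteases Mcpt1 and Mcpt2, with Mcpt9, Cma2 and Tpsg1, were listed at 0 in all libraries. Of the 17 with reads per library, 10 were highest in B, 5 in C, 2 in D and 0 in A. Of genes with a mean of 20 to 100, 32.4% were highest in B and 31.5% in C, and of those with a mean of 2 to 20, 31.2% and 29.0%. Csf2rb, Ndst2 and Srgn lie above both ranges, and with a mean of 10 to 300 the shares were 30.8% and 30.4%. Slc18a2, Mrgpra4, Gzmb, Ctsg and Cd200r3 have means below 2, where no share was computed. Kit, the receptor for stem cell factor, had a mean of 91.3 and 32.1, 170, 88.2 and 75.2 normalized reads in A to D. Hpgds, which makes prostaglandin D2 in mast cells, had a mean of 61.2 and 46.1, 107, 51.7 and 40.4. Gata2, the lineage's transcription factor, had a mean of 15.4 and 12.6, 29.0, 12.7 and 7.28. In all 3 of these genes library B was highest, as in Mcpt4, Cma1 and Cpa3. The leukotriene synthase Ltc4s (mean 4.63), the serotonin enzyme Tph1 (3.79) and the monoamine transporter Slc18a2 (1.71) were highest in B on few reads, as were Gzmb (0.776) with 3 reads, Ctsg (0.517) with 2 and Cd200r3 (0.259) with 1, all of them in B. The cytokine receptor subunit Csf2rb (264) was also highest in B. Serglycin, Srgn (107), was highest in library C, together with the heparin enzyme Ndst2 (208), the granule trafficking GTPase Rab27b (69.9) and Mrgpra4 (1.27), whose 6 reads were all in C. Rab27b was almost level, with 78.9 normalized reads in C and 78.6 in B. Srgn had 143 in C and 130 in B, and Ndst2 241 and 208. No counting intervals are given for the genes of this list. The interleukin-33 receptor Il1rl1 (6.71) and the leukotriene enzyme Alox5 (11.6) were highest in library D. Mitf (2024) and Cd63 (2736) had means too high to be solved for single libraries, and like Kit they are used by melanocytes and other cells.

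Other cell types were checked by fixed lists. All 10 HF-SC markers were present, with means from 590 to 146090 (Krt5) and a median of 9274, among them Krt15 with 119883, Krt14 with 90971 and Cd34 with 14575. Of 4 basophil genes, Mcpt8, Prss34 and Il4 were at 0, and Il6ra, used by many cells, had a mean of 199.9. All 5 melanocyte genes were present, with means from 9.77 to 498 (Dct) and a median of 219. The 4 of them solved per library were each highest in B, with summed normalized reads of 172 in A, 979 in B, 298 in C and 455 in D, so that B was 3.29 times the median of the others, beside 2.99 times for the mast cell members. Their part in the mast cell result was not tested. All 9 macrophage and dendritic cell genes were present (means 62.3 to 2744, median 195, highest Cd74), and the sum of the 6 solved was 617, 1106, 1128 and 862 in A to D. All 4 endothelial genes were present (means 17.3 to 51.3, median 33.3, highest Tek), with 69.8, 161, 137 and 172. The 5 T cell genes were present (means 0.900 to 1043, median 4.85, highest Thy1), and the 4 solved summed to 23.7, 17.6, 12.7 and 14.6. Thy1 is also a fibroblast gene, and the other T cell genes had means of at most 9.52. The 6 fibroblast genes were present (means 39.5 to 5186, median 2029.6, highest Col1a1), and the 2 solved were both highest in B, with sums of 148, 279, 183 and 218. The 4 Schwann cell genes were present (means 26.4 to 352, median 178, highest Mbp), and the 3 solved were each highest in B, with sums of 288, 468, 395 and 379. In the macrophage, endothelial, T cell, fibroblast and Schwann cell lists, library B was between 1.17 and 1.52 times the median of the others. For the summed 17 other mast cell genes solved per library it was 1.61 times.

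**Figure D4:**
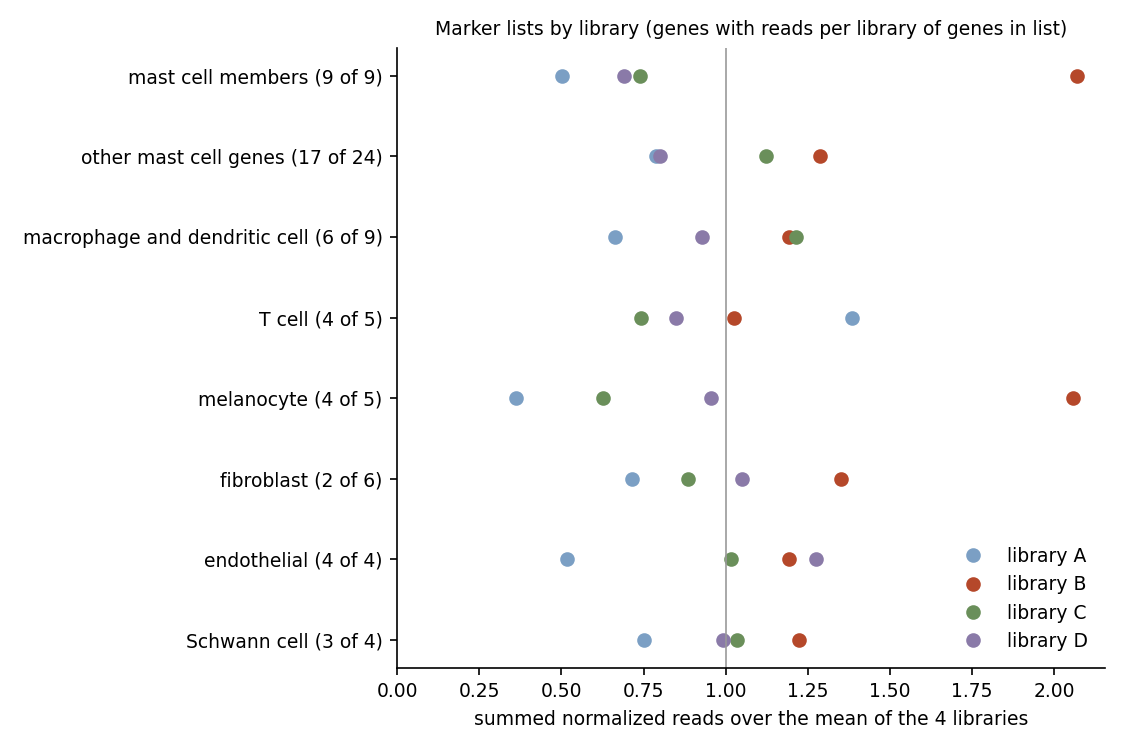
Summed normalized reads of each marker list in libraries A to D, divided by the mean of the 4 libraries (x axis), for the genes solved per library (numbers beside each list). Library B is the rightmost library for the mast cell members (404 normalized reads), other mast cell genes (1125) and melanocyte genes (979). It is also rightmost for the fibroblast (279) and Schwann cell (468) lists, and another library is for the macrophage, endothelial and T cell lists.

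Since the study induced miR-205, the 3' untranslated regions of the members were searched for its site. The microRNA is shown with its seed, bases 2 to 8, in capitals, and the site with the bases that pair with the seed in capitals.
mmu-miR-205-5p, chr1:193507503-193507524 on GRCm38.p6, minus strand: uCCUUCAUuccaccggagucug
Mrgprb2, window around the site: ccatgtccacATGAAGGtgaagagagt
Mrgprb2 was the 1 member of 9 with the site, at bases 55806673 to 55806679 of chromosome 7 on NCBIM37, in exon 2 of 2, on the minus strand, 650 bases into a 3' untranslated region of 991 bases. Of all 14417 genes searched, 11.8% held it, and 6.49% when the shortest annotated region of each was taken. The members' longest annotated regions had a median length of 219 bases and those of all genes 1097 bases. Mrgprb2 had 11 reads in B, 8 in D and 0 in A and C, values that carry no group. Tpsb2, which lacked the site, also had 0 reads in C. Whether the site plays a part in these counts was not tested.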

How the data were processed

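Bulk RNA-seq of sorted HF-SCs was deposited as 1 table of the authors' DESeq2 comparison, made after alignment with HISAT2 2.1.0, SAMtools 1.3.1 and HTSeq counting, per the submitters' processing notes (mm10). Versions of HTSeq and DESeq2 and the strand setting were not stated in the sources used here. The mean normalized count, a signal averaged by the authors over 4 libraries, was used. The deposited fold changes, standard errors, statistics and p-values hold the authors' own comparison and were not used. Columns of per-sample values left out numbered 0.

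Genes with 1 read in 1 library gave the worth of a read in each library. Reads were then solved for all 11172 genes with a mean above 0 and up to 300, to a tolerance of 1e-13 of the mean, with 1 solution each. On simulated data 99.96% of 10806 genes were recovered exactly. Intervals were exact Poisson, conditional binomial (ratios) or Clopper-Pearson intervals at 95%, and the limit for a count of 0 was 3 reads. They cover counting error only. The design planned no test.

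Members and lists were chosen with earlier results of these data known. The text names all members, all 24 other mast cell genes and, of each other list, the range, median and highest gene. Krt15, Krt14 and Cd34, further basophil genes, and the genes of the closing observations were named in addition, after values were seen. Places and promoters are RefSeq's on GRCm38.p6. Lengths and 3' untranslated regions are from GENCODE vM1 on NCBIM37, and no coordinate was converted. Alternatives were other totals, scalings, length measures, low-value filters and libraries left out. Scripts ran in Python 3.11.15 with numpy 2.4.6 and pandas 2.3.3 for the tables, scipy 1.17.1 for the intervals and matplotlib 3.10.9 for the figures.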

Additional observations from a re-analysis of the deposited data

How the results depend on the processing

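Of 55 alternative values, 28 stayed within the bounds set for the result and 27 moved outside them. Most bounds were 95% intervals. The count of members highest in B had a fixed factor instead, and the 797 reads had to be equal. Whether a value reversed was not checked. The summed level of the members was 14.9 per 1000000, and 19.5 with the 50 highest genes left out of the total. The highest over lowest library of the summed members was 4.13, 5.57 in unscaled reads, 3.89 when scaled by the reads of other genes, and 4.93 without Hdc. Leaving out 1 library in turn gave 1.48 (without B) to 4.13, with 2.99 without A. Leaving out C or D could not change this ratio, which is B over A. The 797 reads were the same with refitted factors and with a tolerance 10 times wider, at which 10310 of the 11172 genes kept 1 solution. The count of members highest in B was 7 under each scaling, an alternative added after the data were seen. The level per kb by longest coding sequence moved for 5 of 9 members, to 33.5 from 10.4 for Hdc, which took place 2 in place of 4, to 7.88 from 2.02 for Ms4a2 and to 4.402 from 2.15 for Mrgprb2. Percentiles fell when low genes were left out. The total without mitochondrial genes could not be recomputed, since 0 symbols in the table begin with mt-. The share of members with a miR-205 site was 11.1% with the longest or the shortest 3' untranslated region, while that of all genes was 11.8% or 6.49%. No paired analysis was possible because the recovered libraries carry no replicate number and no test was run. Depth limits Tpsab1, Fcer1a, Mrgprb2, Tpsb2 and Ms4a2, with 1 to 21 reads each.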

Other observations

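Among the 2898 genes with a mean of 20 to 100, 16 had library B at least as far above the median of the other libraries as Cpa3 had. They were listed after the values were seen. Besides Mcpt4, Cma1 and Cpa3 they held the melanin enzyme Tyr, with 5, 69, 27 and 16 reads in libraries A to D, and the selectins of activated endothelium, Sele with 12, 67, 9 and 14 reads and Selp with 20, 126, 4 and 48. They also held Retnla, a gene of alternatively activated macrophages, with 0, 40, 167 and 2 reads, and the matrix protease Mmp9, with 4, 41, 64 and 6. In these 2 genes library C was above B. Abhd12b had the highest ratio, with 6, 205, 7 and 10 reads. The selenoprotein Gpx2 had 5, 85, 9 and 5 reads and the deiodinase Dio2 7, 101, 55 and 25. The others were H2-Q1, Tmem181b-ps, Tmem181c-ps, Gm11127 and C920025E04Rik, and in all 5 libraries A and B lay above C and D. H2-Q1 had 28, 72, 4 and 2 reads, Tmem181b-ps 80, 135, 5 and 8, Tmem181c-ps 31, 40, 6 and 8, Gm11127 44, 60, 6 and 1, and C920025E04Rik 92, 118, 14 and 31. In normalized reads library A was above B for Tmem181c-ps (43.3 against 41.4) and C920025E04Rik (128 against 122).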
